A study of Mus musculus with 6 samples.

Results

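The 41 genes described here encode collagens, other proteins of the extracellular matrix, the enzymes that cross-link them, the transforming growth factor beta (TGF-beta) ligands and receptors, and proteins that mark fibroblasts and mural cells. They were picked by gene symbol and are 41 of the 21367 genes in the deposited table. Of the 41 genes, 40 were among the 13036 that passed the filter on low counts and were tested. The remaining gene, Fap, a protease of activated fibroblasts, was listed at 0.06 to 0.22 FPKM and was not tested.

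The kidneys of 3 Ptpn6+/mev mice and 3 wild-type littermates were sequenced, 1 library per mouse, and the study asked what insufficient SHP-1 changes after renal ischemia-reperfusion injury (IRI). All mice were 7 weeks old and had lost the right kidney, and the left kidney was taken 24 h after its vessels had been closed for 34 min. The Ptpn6+/mev mice, on a C57BL/6 background, are heterozygous for viable motheaten, an allele of the SHP-1 tyrosine phosphatase gene Ptpn6 that changes a splice site in every cell of the body and not in 1 cell type. Both groups were injured, so the comparison holds no uninjured kidney.

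The counts summed to between 10271590 and 12361745 per library. Levels are given as FPKM, fragments scaled to transcript length and to the total number of fragments, and changes as log2 fold changes of Ptpn6+/mev over wild-type from the counts, each with its standard error (SE) where it matters. Ptpn6 itself was at 11.85, 14.7 and 13.6 FPKM in the Ptpn6+/mev mice and at 17.5, 10.9 and 15.4 FPKM in the wild-type mice, so the groups overlapped (log2 fold change -0.19, standard error 0.17, adjusted p = 0.715 in edgeR's quasi-likelihood test). That overlap rested on wild-type replicate 2, without which every Ptpn6+/mev mouse was below both wild-type mice (log2 fold change -0.33, standard error 0.12, adjusted p = 0.212 in the same test). The libraries held the marker genes of kidney, with Umod of the thick ascending limb at 1628 to 2556 FPKM and Slc34a1 of the proximal tubule at 176 to 313 FPKM. One library stood apart: wild-type replicate 2 had a TMM normalization factor of 0.929, against 0.994 to 1.03 in the other libraries, and it was low in most of the genes described here. The fitted change of each member is therefore given with all 6 libraries and without that mouse, and the chain ratios with all 6. The mouse was set aside because genes of this kind were seen to be low in it, so the comparison without it rests on a choice made from these values.

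In the kidney, fibroblasts and pericytes lie between the tubules and the capillaries and make the interstitial matrix, while podocytes, endothelial cells and tubules build the basement membranes. Fibrillar collagens give tensile strength, type IV collagens and nidogen form the sheets of the basement membrane, elastin and fibrillin give recoil, and small proteoglycans such as decorin bind collagen fibrils and growth factors. After injury, TGF-beta signalling and the conversion of fibroblasts and pericytes into contractile myofibroblasts are known to precede scar formation. The libraries are of whole kidney, in which fewer cells of a type and less RNA per cell cannot be told apart.

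With all 6 libraries, whether any member was called at an adjusted p under 0.05 depended on the test, and Eln was the only member called by any of the 4 count-based tests run. Under edgeR's quasi-likelihood test 0 of the 40 tested members were called higher, against 9 of all 13036 genes (0.0690%), and 0 were called lower, against 9 (0.0690%). At an unadjusted p under 0.05, 2 members were higher, Eln and Tgfb3, where 5.53% of all genes were, and 0 were lower, where 6.71% of all genes were. The exact test of edgeR called Eln higher (1.21% of all genes) and 0 members lower (1.78%), DESeq2 called Eln higher (1.10%) and 0 lower (1.88%), and limma-voom with sample quality weights, which gave wild-type replicate 2 a weight of 0.236, called Eln higher (1.55%) and 0 lower (2.22%). The median log2 fold change of the members was 0.07, against -0.0024 over all tested genes, and 26 of the 40 members had a value above 0.

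Leaving out wild-type replicate 2 turned the median to the other side of 0. It became -0.21, against 0.0087 over all genes, with 12 members above 0 and 28 below. The quasi-likelihood test then called Eln higher, where 0.759% of all genes were, and 2 members lower, Dcn and Pdgfra, where 1.01% of all genes were. At an unadjusted p under 0.05, 2 members were higher (9.17% of all genes), again Eln and Tgfb3, and 15 of 40 were lower (8.13%). Those 15 were Col1a1, Col1a2, Col3a1, Col5a1, Col15a1, Nid1, Col6a1, Col6a2, Col6a3, Fbn1, Dcn, Loxl1, Loxl2, Pdgfra and Pdgfrb. Without that mouse DESeq2 called Eln higher (1.63%) and 6 members lower (2.13%), and the exact test called Eln higher (2.40%) and 6 lower (2.76%). In both tests the 6 were Col15a1, Col1a2, Col6a3, Dcn, Loxl1 and Pdgfra.

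**Figure D1:**
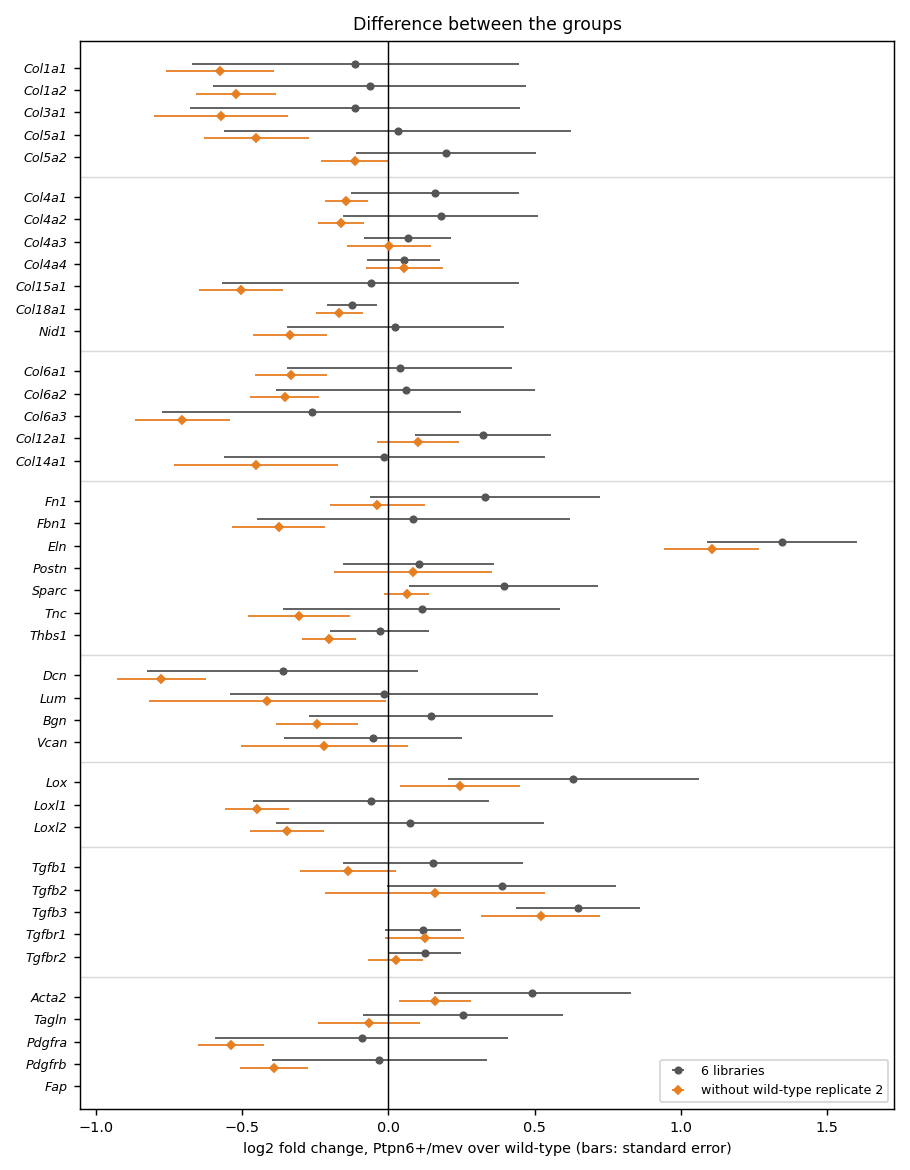
Log2 fold change of Ptpn6+/mev over wild-type (x axis) for each gene (rows, grouped by role), with bars of 1 standard error (SE); circles are the fit of 6 libraries and diamonds the fit without wild-type replicate 2. Eln lies farthest to the right in both fits, at 1.35 and 1.11, while most other genes lie to the left of 0 in the fit without that mouse. Fap has no value because it was not tested.

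The calls without wild-type replicate 2 also moved with single libraries. That comparison called 3 members by quasi-likelihood. When 1 more library was left out, the number called was 0 without Ptpn6+/mev replicate 3 (0.0844% of all genes higher and 0.0997% lower), without wild-type replicate 1 (0.0307% and 0.0997%) or without wild-type replicate 3 (0.153% and 0.407%). Without Ptpn6+/mev replicate 2, Eln was called higher (1.38% of all genes) and 10 members lower (2.35%). Without Ptpn6+/mev replicate 1, Eln was called higher (1.17%), and Dcn and Col6a3 lower (1.46%). Over these 5 fits the log2 fold change lay between 0.93 and 1.22 for Eln, between -0.96 and -0.57 for Dcn and between -0.66 and -0.41 for Pdgfra. Without wild-type replicate 2 the groups of these genes did not overlap, so leaving out 1 more library could not turn their direction. With that mouse kept and another library left out, the log2 fold change reached 0.08 for Dcn and 0.31 for Pdgfra. Where 1 wild-type mouse remained, it was assumed to vary as the Ptpn6+/mev mice do.

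Wild-type replicate 2 had the lowest FPKM of the 6 libraries in 38 of the 40 tested members, against 42.7% of all tested genes. The exceptions were Col4a3, lowest in Ptpn6+/mev replicate 2, and Postn, lowest in wild-type replicate 3. Set against the mean of the other wild-type mice, its level was 30.3% at the median of the members and 90.9% at the median of all tested genes. The shortfall was uneven across the roles. It was deepest in the fibrillar collagens, at a median of 16.2%, and in the beaded filament and fibril-associated collagens, at 21.9%. The proteoglycans stood at 23.7%, the lysyl oxidases at 25.1%, the fibroblast and mural cell genes at 32.3% and the elastic fibre and adhesive glycoprotein genes at 33.4%. Basement membrane genes stood at 39.0% and TGF-beta ligands and receptors at 66.3%.

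Of the members, 5 were closer to the other wild-type mice than the rest, singled out after their values were seen. Col4a4 stood at 92.0%, Postn at 90.6%, Tgfbr1 at 89.1%, Col4a3 at 86.2% and Col18a1 at 83.8% of the other wild-type mice. Col4a3 and Col4a4 encode chains of the glomerular basement membrane that podocytes make, and podocyte markers as a list stood at 74.4%. Markers of other cell types moved with the members in the same library: all 10 of 10 endothelial markers were lowest there, at a median of 33.9%, and all 10 tested macrophage markers, at 43.2%, while resident fibroblast markers outside the members stood at 35.0%. Their summed FPKM was 137.9 in wild-type replicate 2 against 313.5 to 356.8 elsewhere for endothelium, and 116.5 against 181.9 to 288.4 elsewhere for macrophages. Proximal tubule markers stood at 84.8%, injured tubule markers at 117% and distal nephron and collecting duct markers at 228%. These medians hid differences within the lists. Umod stood at 100% and Aqp2 at 310%, and of the injured tubule markers Clu stood at 71.3% and Spp1 at 127%. The part of cell composition in the members' low level was not tested.

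**Figure D2:**
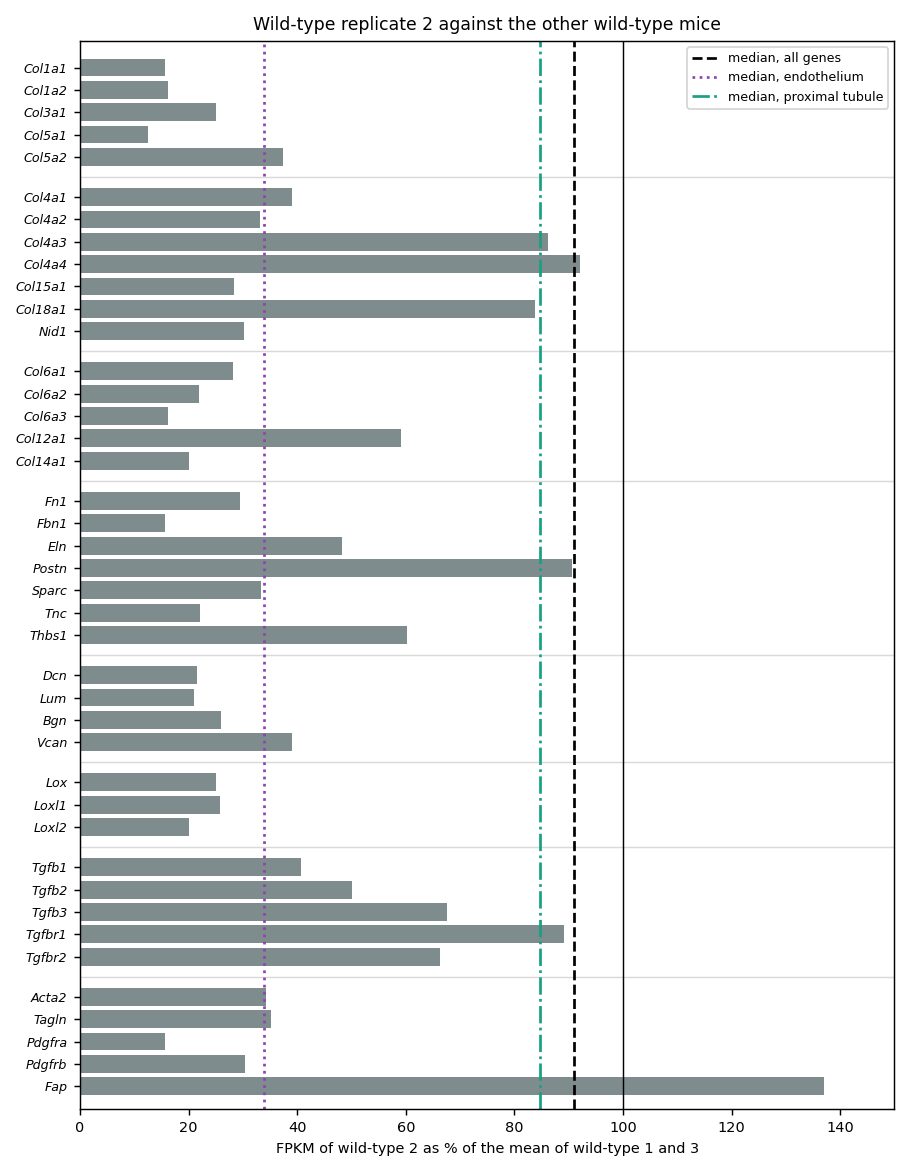
FPKM of wild-type replicate 2 as a percentage of the mean of wild-type replicates 1 and 3 (x axis) for each of the 41 genes (bars, grouped by role); vertical lines mark 100% and the medians over all tested genes (90.9%), endothelial markers (33.9%) and proximal tubule markers (84.8%). Most bars end near the endothelial median or below it, while Col4a3, Col4a4, Col18a1, Postn and Tgfbr1 reach the range of the tubule markers.

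Elastin was the member with the largest difference. Eln, on chromosome 5 from 134702593 to 134747323 (GRCm38), encodes the core protein of elastic fibres, which in kidney lie mainly in the walls of arteries. Its FPKM was 18.7, 12.6 and 14.7 in the Ptpn6+/mev mice and 6.72, 3.37 and 7.26 in the wild-type mice. Every Ptpn6+/mev mouse was above every wild-type mouse, and the means were 15.3 ± 3.09 (SD, n = 3) and 5.78 ± 2.11 (SD, n = 3). The log2 fold change was 1.35 (SE 0.26, adjusted p = 0.0943 in edgeR's quasi-likelihood test), and it lay between 1.11 and 1.52 when each library was left out in turn. The adjusted p depended on the test, at 1.69e-04 in edgeR's exact test, 1.13e-04 in DESeq2 and 0.0111 in limma-voom with quality weights. Without wild-type replicate 2 the log2 fold change was 1.11 (SE 0.16, adjusted p = 0.0193 in edgeR's quasi-likelihood test).

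The other genes of elastic and adhesive matrix were not called in either comparison. Fbn1, which encodes the fibrillin of the microfibrils that elastin is laid on, was at 5.86, 7.66 and 5.45 FPKM in the Ptpn6+/mev mice and at 6.88, 1.26 and 9.20 FPKM in the wild-type mice, with the Ptpn6+/mev values inside the wild-type range. Its log2 fold change was 0.09 with all libraries and -0.37 without wild-type replicate 2 (adjusted p = 0.264 in edgeR's quasi-likelihood test). Fn1, the adhesive glycoprotein fibronectin, was at 11.85, 19.0 and 14.7 FPKM against 15.0, 4.50 and 15.5 FPKM. Its values also overlapped, and its log2 fold change was 0.33 and, without that mouse, -0.04.

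Sparc, a collagen-binding glycoprotein, was the most abundant member, at 335 to 362 FPKM in the Ptpn6+/mev mice and at 329, 113 and 349 FPKM in the wild-type mice. With all mice its log2 fold change was 0.39 (SE 0.32), and without wild-type replicate 2 it was 0.06 (SE 0.08). Tnc and Thbs1, adhesion-modulating glycoproteins induced by injury, overlapped between the groups with all libraries. The log2 fold change of Tnc was 0.11 with all libraries and -0.31 without wild-type replicate 2. Thbs1 was at 32.2, 36.9 and 38.0 FPKM in the Ptpn6+/mev mice and at 39.0, 24.2 and 41.5 FPKM in the wild-type mice, with log2 fold changes of -0.03 and, without that mouse, -0.20. Postn, periostin of healing and fibrotic tissue, was at 2.04 to 3.39 FPKM in all 6 libraries with no order by group, and its log2 fold changes were 0.10 and 0.08.

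Fibrillar collagens, which build the interstitial fibrils, were not called with all libraries or without wild-type replicate 2 in the quasi-likelihood test, and the sign of their fitted change turned between the comparisons for 2 of them. Col1a1, the major chain of type I collagen, was at 23.6, 41.9 and 29.95 FPKM in the Ptpn6+/mev mice and at 46.8, 7.26 and 46.2 FPKM in the wild-type mice. Col1a2, its partner chain, was at 38.2, 55.1 and 40.9 FPKM against 64.9, 10.6 and 65.8 FPKM. In both chains all Ptpn6+/mev mice lay below wild-type replicates 1 and 3 and above wild-type replicate 2. For Col1a1 the log2 fold change was -0.11 with all libraries and -0.58 without that mouse. For Col1a2 the log2 fold change was -0.06 (SE 0.53) with all libraries and -0.52 (SE 0.14, adjusted p = 0.0912 in edgeR's quasi-likelihood test) without that mouse.

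Col3a1, the type III chain of fine reticular fibres, ranged from 45.9 to 91.6 FPKM in the Ptpn6+/mev mice and was at 79.0, 20.2 and 81.97 FPKM in the wild-type mice. Its groups overlapped in both comparisons, because Ptpn6+/mev replicate 2 was the highest of all libraries, and its log2 fold change was -0.11 with all libraries and -0.57 without wild-type replicate 2. Col5a1 and Col5a2, which start fibril assembly, had log2 fold changes of 0.03 and 0.20 with all libraries and of -0.45 and -0.11 without that mouse, and neither was called. All 5 fibrillar chains were below 0 in that comparison, with a median of -0.52, and 2 of the 5 were above 0 with all libraries.

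**Figure D3:**
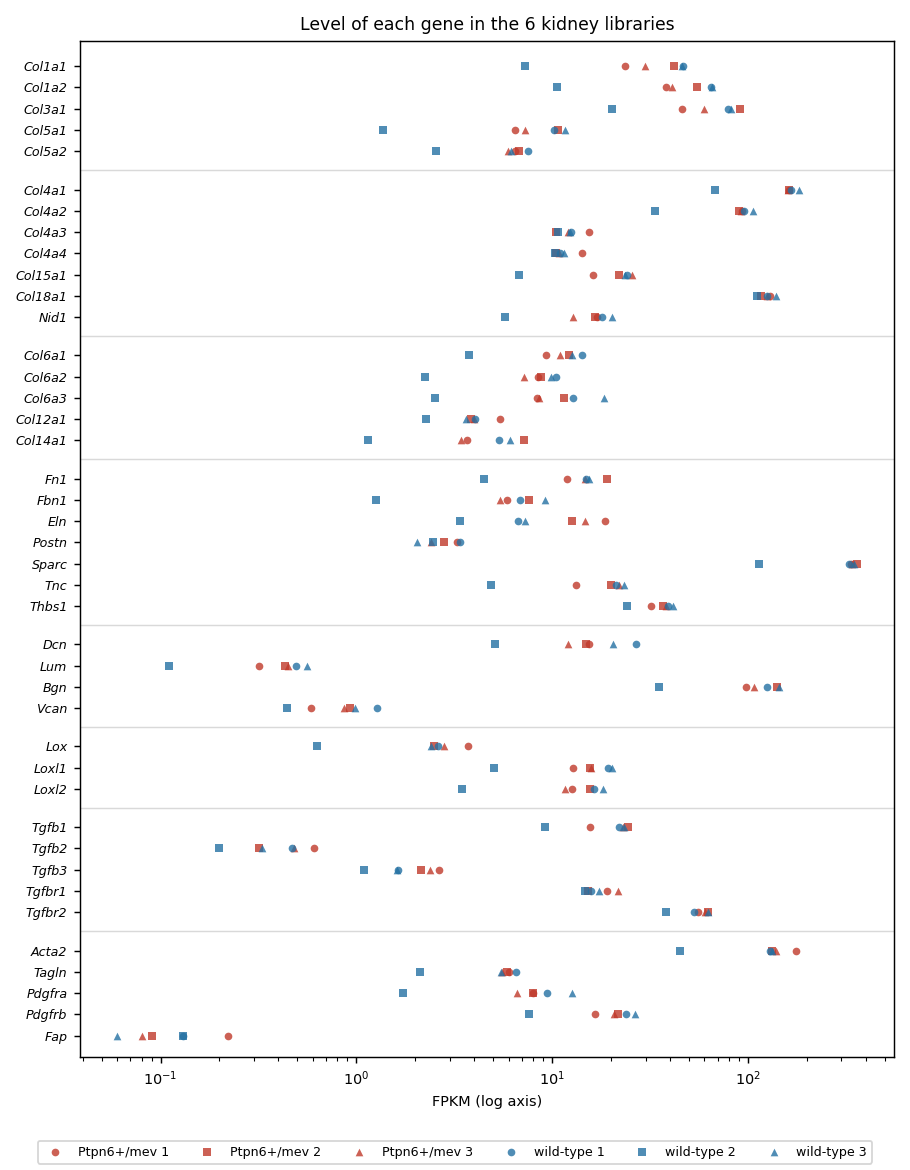
FPKM on a log axis (x) of each of the 41 genes (rows, grouped by role) in the 3 Ptpn6+/mev libraries (red) and the 3 wild-type libraries (blue), with the marker shape giving the replicate. The blue square of wild-type replicate 2 is the lowest point in 38 of the 40 tested genes, and the levels run from Fap, at most 0.22, to Sparc, up to 362.

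Of the collagens, Col4a1, Col18a1 and Col4a2 of the basement membrane had the highest mean FPKM in both groups. Col4a1, the ubiquitous type IV chain, was at 162.9, 161.8 and 159.8 FPKM in the Ptpn6+/mev mice and at 166.3, 67.97 and 182.0 FPKM in the wild-type mice. Col4a2, its partner chain, was at 93.3, 90.03 and 92.3 FPKM against 96.0, 33.5 and 105.8 FPKM. The Ptpn6+/mev values of both were tight and lay just under wild-type replicates 1 and 3, with log2 fold changes of 0.16 and 0.18 with all libraries and of -0.14 and -0.16 without wild-type replicate 2. Neither chain was called.

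Col4a3 and Col4a4 of the glomerular basement membrane were at 10.4 to 15.4 and at 10.5 to 14.3 FPKM in the Ptpn6+/mev mice, and at 10.66 to 12.4 and at 10.3 to 11.5 FPKM in the wild-type mice. Both overlapped between the groups, and their log2 fold changes, 0.07 and 0.05 with all libraries and 0.0028 and 0.05 without wild-type replicate 2, were within 1 standard error of 0. Col18a1, the source of endostatin, was at 117 to 129 FPKM in the Ptpn6+/mev mice and at 111 to 139.8 FPKM in the wild-type mice, with log2 fold changes of -0.12 and, without that mouse, -0.17. Col15a1, a related chain of vascular basement membranes, was at 16.3, 21.97 and 25.6 FPKM in the Ptpn6+/mev mice and at 24.1, 6.79 and 23.7 FPKM in the wild-type mice. Its FPKM overlapped between the groups in both comparisons, with the highest value in Ptpn6+/mev replicate 3. From counts its log2 fold change was -0.06 with all libraries and -0.51 without wild-type replicate 2, while the ratio of mean FPKM without that mouse was 0.890, so the size of the difference depended on the measure. Nid1, the linker nidogen, had log2 fold changes of 0.02 with all libraries and -0.34 without that mouse, and did not overlap between the groups in the latter.

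The type VI chains form beaded filaments around cells and fibrils. Col6a1 was at 9.32 to 12.2 FPKM in the Ptpn6+/mev mice and at 14.2, 3.76 and 12.6 FPKM in the wild-type mice. Col6a2 and Col6a3 had the same order of libraries between groups, with all Ptpn6+/mev mice between wild-type replicate 2 and the other wild-type mice. With all libraries the log2 fold changes of Col6a1 and Col6a2 were 0.04 and 0.06, and without that mouse -0.33 and -0.35. Col6a3 had the lowest log2 fold change of these, -0.26 with all libraries and -0.71 without wild-type replicate 2 (SE 0.16, adjusted p = 0.0655 in edgeR's quasi-likelihood test), with 8.33, 11.5 and 8.58 FPKM against 12.85 and 18.3 FPKM in the mice that remained. Col12a1 and Col14a1, which sit on the surface of fibrils, overlapped between the groups in both comparisons. Their log2 fold changes were 0.32 and -0.01 with all libraries and 0.10 and -0.45 without wild-type replicate 2.

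Among the proteoglycans, decorin stood apart when wild-type replicate 2 was left out. Dcn, on chromosome 10 from 97479609 to 97518143, encodes a small proteoglycan that binds collagen fibrils and TGF-beta. It was at 15.4, 14.8 and 12.1 FPKM in the Ptpn6+/mev mice and at 26.9, 5.11 and 20.6 FPKM in the wild-type mice. The Ptpn6+/mev mice thus lay above 1 wild-type mouse and below the other two. The log2 fold change was -0.36 (SE 0.46, adjusted p = 0.826) with all libraries and -0.78 (SE 0.15, adjusted p = 0.0392) without that mouse, both in edgeR's quasi-likelihood test. Bgn, the related biglycan, was more abundant, at 97.6 to 141.5 FPKM in the Ptpn6+/mev mice and at 126, 35.2 and 145 FPKM in the wild-type mice, and was not called (0.15 with all libraries and -0.24 without that mouse, as log2 fold changes). Lum (lumican) and Vcan (versican) were at most 0.56 and 1.27 FPKM in any library, and their log2 fold changes were -0.02 and -0.05 with all libraries and -0.41 (SE 0.41) and -0.22 (SE 0.29) without that mouse.

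Fibroblast and mural cell genes split by gene. Pdgfra, the platelet-derived growth factor receptor of interstitial fibroblasts, lies on chromosome 5 from 75152292 to 75198215. It was at 7.96, 8.00 and 6.65 FPKM in the Ptpn6+/mev mice and at 9.47, 1.74 and 12.6 FPKM in the wild-type mice. All 3 Ptpn6+/mev mice lay above wild-type replicate 2 and below the other wild-type mice. The fitted log2 fold change was -0.09 (SE 0.50) with all libraries and -0.54 (SE 0.11, adjusted p = 0.0496 in edgeR's quasi-likelihood test) without wild-type replicate 2. Pdgfrb, the receptor of pericytes and other mural cells, was at 16.6, 21.6 and 20.7 FPKM against 23.9, 7.66 and 26.5 FPKM, with a log2 fold change of -0.03 with all libraries and -0.39 without that mouse.

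Acta2, smooth muscle actin of vessel walls and myofibroblasts, was at 177, 133 and 139 FPKM in the Ptpn6+/mev mice and at 130.03, 45.0 and 133 FPKM in the wild-type mice. The groups did not overlap, but Ptpn6+/mev replicate 2 and wild-type replicate 3 were within 1 FPKM of each other, and the log2 fold change was 0.49 (SE 0.34, adjusted p = 0.632 in edgeR's quasi-likelihood test). Without wild-type replicate 2 it was 0.16 (SE 0.12, adjusted p = 0.544 in the same test). Tagln, another contractile protein gene, was at 5.57 to 6.02 FPKM in the Ptpn6+/mev mice, inside the wild-type range of 2.11 to 6.55 FPKM, with log2 fold changes of 0.25 and, without that mouse, -0.07. Over all tested genes, groups without overlap in FPKM were frequent: with 6 libraries, 3 members were higher without overlap (Eln, Tgfb3 and Acta2), where 14.0% of all genes were, and 0 lower, where 6.38% were. Without wild-type replicate 2 the same 3 were higher (21.1% of all genes) and 16 were lower (14.3%).

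**Figure D4:**
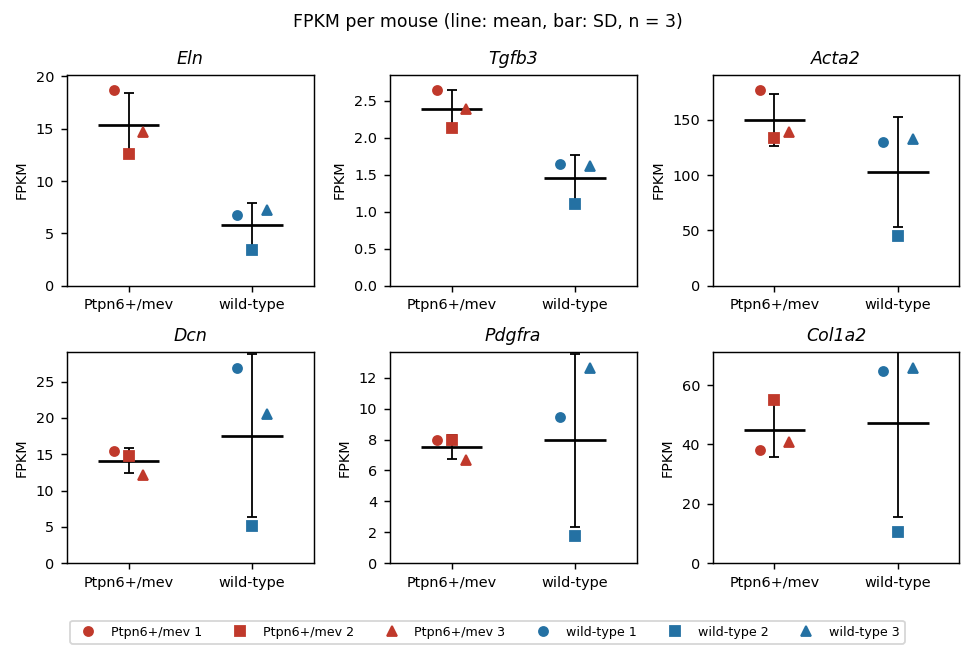
FPKM (y axis, from 0) of Eln, Tgfb3, Acta2, Dcn, Pdgfra and Col1a2 in each mouse, with the mean (line) and SD (bar) of 3 mice per group. Eln, Tgfb3 and Acta2 do not overlap between the groups, while in Dcn, Pdgfra and Col1a2 the Ptpn6+/mev mice lie between wild-type replicate 2 and the other wild-type mice.

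Markers of adipocytes varied between the mice and were recorded beside the fibroblast genes, since fat tissue also expresses Dcn and Pdgfra. Summed over the 5 markers, they were at 62.9 FPKM in Ptpn6+/mev replicate 1 and at 0.36 and 0.38 FPKM in replicates 2 and 3. In the wild-type mice the sums were 84.7, 1.32 and 71.2 FPKM. Wild-type replicates 1 and 3, the mice that remained in the comparison without replicate 2, were thus among the 3 libraries with adipocyte signal. Adipoq, the defining marker, was at 0 in Ptpn6+/mev replicates 2 and 3, at 0.07 FPKM in wild-type replicate 2 and at 4.36 to 7.30 FPKM in the other libraries. The part of adipose tissue in the lower Dcn and Pdgfra was not tested. Without wild-type replicate 2, 5 of 9 proximal tubule markers were also called lower in the quasi-likelihood test (median log2 fold change -0.54), where 1.01% of all genes were, against 0 of 8 resident fibroblast markers outside the members (-0.28), 0 of 10 endothelial markers (-0.17) and 0 of 10 macrophage markers (-0.08).

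The lysyl oxidases cross-link collagen and elastin. Lox was at 3.73, 2.49 and 2.80 FPKM in the Ptpn6+/mev mice and at 2.60, 0.63 and 2.41 FPKM in the wild-type mice, with overlap and a log2 fold change of 0.63 (SE 0.43) with all libraries and 0.25 (SE 0.21) without wild-type replicate 2. Loxl1, which is needed for elastic fibres, was at 12.8, 15.6 and 15.8 FPKM against 19.3, 5.07 and 20.1 FPKM. Its log2 fold change was -0.06 with all libraries. Without wild-type replicate 2 it did not overlap, with -0.45 (SE 0.11, adjusted p = 0.0749 in edgeR's quasi-likelihood test). Loxl2, which acts on basement membrane collagen, had -0.35 in the same comparison and 0.07 with all libraries.

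Of the TGF-beta genes, Tgfb3 was the only ligand whose groups did not overlap. It lies on chromosome 12 from 86056745 to 86079041 and encodes the TGF-beta 3 ligand. It was at 2.64, 2.13 and 2.38 FPKM in the Ptpn6+/mev mice and at 1.64, 1.10 and 1.62 FPKM in the wild-type mice. Every Ptpn6+/mev mouse was above every wild-type mouse, although the level was low. The fitted log2 fold change was 0.65 (SE 0.21, adjusted p = 0.268) with all libraries and 0.52 (SE 0.20, adjusted p = 0.226) without wild-type replicate 2, both in edgeR's quasi-likelihood test. Tgfb1, the main ligand of injured kidney, was at 15.6, 24.3 and 22.99 FPKM in the Ptpn6+/mev mice and at 22.1, 9.22 and 23.2 FPKM in the wild-type mice, with overlap and log2 fold changes of 0.15 and, without wild-type replicate 2, -0.14. Tgfb2 was at most 0.61 FPKM in any library, with log2 fold changes of 0.39 and, without that mouse, 0.16. The receptor genes Tgfbr1 and Tgfbr2 had log2 fold changes of 0.12 each with all libraries and of 0.12 and 0.02 without wild-type replicate 2, and neither was called.

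The chains of 1 collagen trimer were compared within each library as ratios of FPKM. Col1a1 over Col1a2 lay between 0.618 and 0.761 in the 6 libraries, Col4a1 over Col4a2 between 1.72 and 2.03, and Col4a3 over Col4a4 between 0.989 and 1.13. In wild-type replicate 2 the type I ratio was 0.686, inside the range of the other mice, and the Col4a1 over Col4a2 ratio was 2.03, the highest. Col5a1 over Col5a2 was the least stable, at 0.994, 1.58 and 1.22 in the Ptpn6+/mev mice and at 1.36, 0.537 and 1.89 in the wild-type mice. Col6a1 over Col6a2 ranged from 1.10 to 1.69, and Col6a3 over Col6a1 from 0.670 to 1.46. In an exact two-sided permutation test, where 3 against 3 mice allow no p under 0.1, p was between 0.6 and 1.0 for the 6 ratios, and each adjusted value was 1.0.

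The annotated starts of Col4a1 and Col4a2 lie 21 bases apart on chromosome 8, and the genes run in opposite directions. The pair is known to share a control region.

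**Figure D5:**
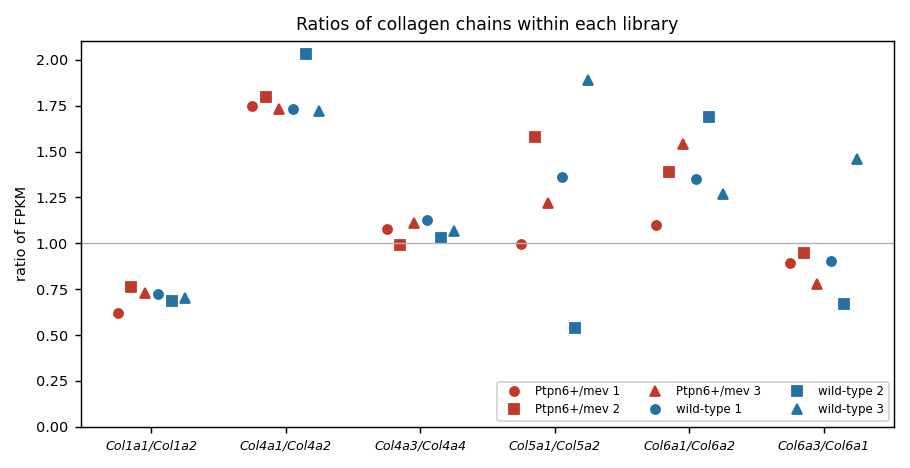
Ratio of FPKM (y axis, from 0) for the 6 collagen chain pairs (x axis) in each library, with red for Ptpn6+/mev, blue for wild-type and the marker shape for the replicate. The type I and type IV pairs stay in narrow bands, while Col5a1 over Col5a2 spreads from 0.537 to 1.89, both in wild-type mice.

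Promoter sequence is shown for the members called lower by any of the 3 tests run without wild-type replicate 2 that have an entry in the RefSeq table and no annotated exon in the stretch shown, which left Pdgfra, Col15a1 and Col6a3. Each line gives the 120 bases before the RefSeq start site (GRCm38.p6), 5′ to 3′ on the gene's strand. Pdgfra is at chr5:75152131-75152250 on the plus strand, Col15a1 at chr4:47207892-47208011 on the plus strand and Col6a3 at chr1:90843972-90844091 on the minus strand.
Pdgfra: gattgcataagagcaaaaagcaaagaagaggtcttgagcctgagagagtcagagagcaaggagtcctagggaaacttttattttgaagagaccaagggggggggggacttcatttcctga
Col15a1: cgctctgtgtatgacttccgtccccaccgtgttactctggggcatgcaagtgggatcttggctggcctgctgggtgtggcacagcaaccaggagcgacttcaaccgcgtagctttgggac
Col6a3: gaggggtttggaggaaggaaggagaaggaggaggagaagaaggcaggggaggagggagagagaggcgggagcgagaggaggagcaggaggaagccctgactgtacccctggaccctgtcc

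These stretches hold neither CCAAT, the box known from collagen promoters, nor CAGAC, the core of the SMAD element of TGF-beta signalling, on either strand, so no base is in capitals. Of the members, 24 had an entry, with 29 windows of 250 upstream bases. CCAAT was present in 9 of the 29 windows and in 33.8% of all 32851 windows. CAGAC was present in 15 of the 29 and in 42.2% of all. A match is a description of letters, not of a site in use.

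Matrix genes outside the 41 were taken from 7 fixed lists, and 0 of their genes were called with all libraries in edgeR's quasi-likelihood test. That test called, once wild-type replicate 2 was left out, 1 of 12 other collagen chains, 1 of 22 genes of collagen processing, 2 of 33 other matrix glycoproteins, 0 of 5 other proteoglycans, 1 of 28 other TGF-beta pathway genes, 0 of 15 matrix receptors and 0 of 17 contractile and mural cell genes, where 0.759% of all genes were called higher and 1.01% lower. The collagen chain was Col27a1, a fibrillar collagen of cartilage, at 4.52, 4.54 and 4.14 FPKM in the Ptpn6+/mev mice and at 12.4, 21.3 and 10.4 FPKM in the wild-type mice. Wild-type replicate 2 had its highest value, where it had the lowest of most members. Its log2 fold change was -1.83 (SE 0.28, adjusted p = 0.0685) with all libraries and -1.40 (SE 0.11, adjusted p = 8.23e-04) without that mouse, both in edgeR's quasi-likelihood test.

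P3h2, a prolyl hydroxylase of basement membrane collagen, was lower without wild-type replicate 2 (log2 fold change -0.46), as was Tnxb, a tenascin of loose connective tissue (-1.01). Lamb3, a laminin chain of epithelial basement membranes, was higher (0.77), at 8.01 to 9.05 FPKM against 4.78 to 5.22 FPKM in the 3 wild-type mice. Ctgf, a matricellular target of TGF-beta and YAP signalling, was also higher (0.78, standard error 0.13, adjusted p = 0.0297 in edgeR's quasi-likelihood test). It was at 95.5, 85.7 and 120.1 FPKM in the Ptpn6+/mev mice and at 57.7, 72.3 and 59.9 FPKM in the wild-type mice, without overlap. The median log2 fold changes of the 7 lists lay between -0.05 and 0.19 with all libraries and between -0.17 and 0.10 without that mouse.

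Deposited FPKM and counts did not give the same fold for every member. The number of counts per FPKM differed by more than 1.2 times between libraries for 7 of the 41 genes, and by up to 1.69 times for Vcan. For Col3a1 the ratio of mean FPKM without wild-type replicate 2 was 0.817, while the log2 fold change from counts was -0.57. Fbn1 was the 1 member with fractional counts.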

How the data were processed

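Total RNA of 6 left kidneys was enriched for poly-A mRNA and sequenced in pairs of reads. After trimming, the authors used TopHat for alignment to the mouse genome (Ensembl 90, GRCm38.p5) and Cufflinks for expression. What they deposited is 1 table that gives, per gene and library, an estimated count and an FPKM value. RSEM is named in the submitters' processing notes, but which tool gave the counts is not stated, and neither is any use of strand. The deposited estimated counts, fractional in 1744 of 21367 genes, were rounded before testing. The FPKM values deposited by the authors were used for levels and ratios. Every column of per-sample values was used. The prefix HE of the column names was read as the Ptpn6+/mev group.

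The groups were compared in R 4.3.3 with edgeR 4.0.16 (TMM, filterByExpr, quasi-likelihood test, Benjamini-Hochberg adjustment over the 13036 tested genes, threshold 0.05). DESeq2 1.42.0, limma 3.58.1, edgeR's exact test, other filters and scalings, FPKM with pseudocounts of 1 and 0.1, a replicate block and each library left out were alternatives. The fits without a library kept the same 13036 genes. Chain ratios were tested by exact permutation with numpy 2.4.6, and figures were drawn with matplotlib 3.10.9.

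On simulated data with 200 changed genes among 13036, the quasi-likelihood test recovered 57.1% of 2-fold and 90.2% of 4-fold changes, and 6.92% of its calls were false. For the exact test these shares were 73.5%, 92.2% and 17.8%, and for DESeq2 67.3%, 91.2% and 18.5%. For limma-voom with quality weights they were 58.2%, 90.2% and 6.88%. The simulation drew each gene independently, with no library low in many genes together as wild-type replicate 2 was. Libraries of 1 group differed by more than sampling noise. The chi-square of their counts per degree of freedom was 25.6 and 37.7 in the pairs with wild-type replicate 2. In the other pairs it lay at 5.61 to 9.22.

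The members, the gene lists and the alternatives were chosen with earlier results of these data known. The text names every member and Ptpn6. From each list of pathway genes it names every gene called in either comparison and the 2 most abundant of the rest, and from each of 12 marker lists the 2 most abundant, apart from 2 genes that are not reported here. Gene positions are those of GENCODE M21 (GRCm38), the assembly of the files, and promoter sequences are from RefSeq (GRCm38.p6). Sequence tables held no entry for 17 members.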

Additional observations from a re-analysis of the deposited data

How the results depend on the processing

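The number of genes called over the whole table moved with the test. It was 18 in edgeR's quasi-likelihood test, 388 in DESeq2, 390 in edgeR's exact test, 492 in limma-voom with sample quality weights (chosen after seeing the data), 52 without a filter on low counts, and 1 to 231 when each library was left out in turn (1 without Ptpn6+/mev replicate 3 and 231 without wild-type replicate 2). Members called higher numbered 1, Eln, in DESeq2, the exact test and limma-voom, and 0 to 1 with a library left out. Members called lower numbered 0 to 2 with a library left out. The median log2 fold change of the members, 0.07 in the main test, was 0.28 with limma on log2(FPKM + 1), 0.33 on log2(FPKM + 0.1) and -0.13 in limma-voom, and ran from -0.21 without wild-type replicate 2 to 0.31 without wild-type replicate 3. The count of 3 members without wild-type replicate 2 became 7 in DESeq2 and 7 in the exact test, and 0 to 11 when 1 more library was left out. In the fit that gave 11, without Ptpn6+/mev replicate 2, 1.38% of all tested genes were called higher and 2.35% lower, and in the fit with the fewest calls, without wild-type replicate 1, 0.0307% and 0.0997% were.

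The sign of single members was not stable, and 31 of the 40 tested members changed sign in some setting, or 34 when the further settings without wild-type replicate 2 are counted, which added Col12a1, Tgfb2 and Tgfbr2. Reversed log2 fold changes with limma on log2(FPKM + 1) were Col1a1 0.27, Col1a2 0.28, Col3a1 0.30, Col15a1 0.38, Col6a3 0.084, Col14a1 0.27, Thbs1 0.063, Lum 0.028, Loxl1 0.19, Pdgfra 0.22 and Pdgfrb 0.18, and on log2(FPKM + 0.1) they were Col1a1 0.30, Col1a2 0.31, Col3a1 0.31, Col15a1 0.41, Col6a3 0.15, Col14a1 0.40, Thbs1 0.065, Lum 0.19, Loxl1 0.22, Pdgfra 0.32 and Pdgfrb 0.20. In limma-voom they were Col5a1 -0.28, Col5a2 -0.11, Col4a1 -0.049, Col4a2 -0.049, Col4a3 -0.035, Nid1 -0.28, Col6a1 -0.25, Col6a2 -0.29, Fbn1 -0.19, Postn -0.10, Tnc -0.11, Bgn -0.12, Loxl2 -0.23, Tgfb1 -0.038 and Tagln -0.043. The cause was not tested. With each library left out in turn, the members that changed sign ranged as follows: Col1a1 -0.58 to 0.21, Col1a2 -0.52 to 0.24, Col3a1 -0.57 to 0.20, Col5a1 -0.45 to 0.44, Col5a2 -0.11 to 0.50, Col4a1 -0.14 to 0.38, Col4a2 -0.16 to 0.43, Col4a3 -0.10 to 0.19, Col4a4 -0.10 to 0.13, Col15a1 -0.51 to 0.24, Nid1 -0.34 to 0.31, Col6a1 -0.33 to 0.35, Col6a2 -0.35 to 0.37, Col6a3 -0.71 to 0.035, Col14a1 -0.46 to 0.36, Fn1 -0.038 to 0.58, Fbn1 -0.37 to 0.57, Postn -0.069 to 0.34, Tnc -0.31 to 0.44, Thbs1 -0.20 to 0.091, Dcn -0.78 to 0.084, Lum -0.41 to 0.34, Bgn -0.24 to 0.46, Vcan -0.22 to 0.25, Loxl1 -0.45 to 0.21, Loxl2 -0.35 to 0.41, Tgfb1 -0.14 to 0.35, Tgfbr1 -0.00094 to 0.25, Tagln -0.067 to 0.56, Pdgfra -0.54 to 0.31 and Pdgfrb -0.39 to 0.24. Eln, Tgfb3, Acta2, Sparc and Lox stayed above 0 in every setting run, and Col18a1 stayed below 0. In Eln and Tgfb3 the groups do not overlap, so leaving out libraries could not turn their sign. Of the chain ratios, Col4a3 over Col4a4 turned to 0.013 (log2 difference between the groups) from counts, and the log2 differences with a library left out were Col1a1 over Col1a2 -0.063 to 0.087, Col4a1 over Col4a2 -0.092 to 0.027, Col4a3 over Col4a4 -0.062 to 0.023, Col5a1 over Col5a2 -0.37 to 0.54, Col6a1 over Col6a2 -0.20 to 0.036 and Col6a3 over Col6a1 -0.40 to 0.16.

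The labels give both groups the replicate numbers 1 to 3, but nothing says that they pair the mice. Deviations from the group means correlated at -0.14, -0.18 and -0.13 between same-numbered mice, and no mouse correlated best with its own number, so the numbers were not treated as pairs. With the replicate number as a block, 1 gene was called over the whole table, 0 members were called and the reversed log2 fold changes were Col1a1 0.13, Col1a2 0.20, Col3a1 0.074, Col15a1 0.18, Col14a1 0.091, Lum 0.086, Loxl1 0.11, Pdgfra 0.17 and Pdgfrb 0.11.

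Fap, Lum, Vcan and Tgfb2 were the least abundant members, and Fap was too low to be tested. In the simulation the quasi-likelihood test recovered 57.1% of genes changed 2-fold.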

Other observations

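The genes of the other matrix lists given in this paragraph varied less between the groups than Eln. Col27a1 of those lists varied more, with log2 fold changes of -1.83 with all libraries and -1.40 without wild-type replicate 2. The collagen chain Col4a5, which joins Col4a3 and Col4a4 in the glomerular basement membrane, was at 9.31 to 11.9 FPKM in the Ptpn6+/mev mice and at 8.38 to 10.01 FPKM in the wild-type mice, with a log2 fold change of 0.12. The folding enzymes P4hb and Ppib, used by many secreted proteins, stood at 89.7% and 93.4% of the other wild-type mice in wild-type replicate 2, near the 90.9% of all tested genes at the median. The list of collagen processing that they belong to was lower in that mouse, at a median of 59.7%. Of its 22 tested genes, 18 were lowest there. The matrix proteins Ecm1 and Agrn and the proteoglycans Podn and Prelp had log2 fold changes of 0.23, 0.01, -0.20 and -0.05 with all libraries and of 0.02, 0.06, -0.12 and -0.44 without wild-type replicate 2, and none of the 4 was called. Among matrix receptors, Itgb1 was at 170.9 to 201.6 FPKM in the Ptpn6+/mev mice and at 151.8 to 160.7 FPKM in the wild-type mice, without overlap, and Sdc4 was at 138 to 158 FPKM against 167 to 191 FPKM, also without overlap. Neither was called in edgeR's quasi-likelihood test (adjusted p = 0.411 and 0.188). The mesenchymal filament gene Vim was at 142, 43.3 and 146 FPKM in the wild-type mice and at 150.4 to 165.7 FPKM in the Ptpn6+/mev mice. The contractile gene Myl9 was at 76.4, 38.3 and 69.9 FPKM against 82.5 to 91.7 FPKM. Both were low in wild-type replicate 2, did not overlap between the groups with or without that mouse, and were not called in either comparison.

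Markers of other cell types gave these further values in wild-type replicate 2, as a percentage of the other wild-type mice at the median of each list. Neutrophil markers, led by S100a9 and S100a8, stood at 58.7%, and red blood cell markers, led by Hbb-bs and Hba-a2, at 51.7%. The podocyte marker Podxl was at 43.3 FPKM in that mouse, against 65.3 FPKM or more in the other wild-type mice. Among tubule markers, Aqp2 of the collecting duct was at 431 FPKM in that mouse and at 121.6 to 227.5 FPKM in the other libraries. Slc27a2 of the proximal tubule was at 745 FPKM against 409 to 579 FPKM. Slc34a1 of the same segment was lowest there at 175.6 FPKM against 192.8 to 312.7 FPKM. Of the injured tubule markers, Spp1 was highest there, at 32920 FPKM against 20881 to 27631 FPKM. Clu was lowest there, at 1758 FPKM against 2164 to 2766 FPKM. Urothelial markers stood at 205%, although Krt5 was at 99.7% and Upk3a at 243%, and mesothelial markers (Msln, Upk3b) stood at 223%. Adipocyte markers, led by Cfd, stood at 1.46%. Fibroblast markers outside the members, led by Tcf21 and Cygb, were at 6.85 and 2.49 FPKM in that mouse and at 8.63 to 19.5 and 3.45 to 8.93 FPKM elsewhere. Of endothelial and macrophage markers, Plvap was at 40.3 FPKM there against 110.5 to 135.5 FPKM, Egfl7 at 31.3 against 43.5 to 56.6 FPKM, Lyz2 at 49.3 against 72.3 to 165.7 FPKM and C1qb at 17.2 against 25.7 to 34.9 FPKM.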
